A study of Drosophila melanogaster with 16 samples.

Results

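Brain complexes of scrib mutant larvae at day 9 after egg deposition were compared with brain complexes of wild-type larvae at day 5. The comparison was chosen by tissue and genotype from the labels. Its group means rest on 5 of the 16 arrays of the study, 3 scrib and 2 wild type. The whole study measured wing discs and brain complexes of wild-type, scrib and lgl larvae on single-colour Affymetrix arrays. All larvae were of the third instar and were kept at 25°C on a standard medium. The scrib larvae carried the alleles scrib1/scrib2, and the lgl larvae, used here for comparison, carried lgl27S3/lglE2S31, described as lgl-null. Each mutant sample is labelled as tumours and each wild-type sample as having none. Genotype and age changed together, so the effects of scrib loss and of a longer larval life cannot be told apart in any comparison with wild type. The 3 lgl brain arrays, also of day 9, served as an age-matched group.

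Scrib is a scaffold protein of the lateral membrane that acts with Dlg and Lgl to keep epithelial cells polarised. In the larval brain the same proteins act in neuroblasts, the neural stem cells, which divide unequally into a new neuroblast and a smaller cell that forms neurons or glia. A brain complex as dissected may carry attached tissue such as the ring gland, which makes the steroid hormone ecdysone, and imaginal discs of the eye and antenna.

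All values are log2 signals, and a gene is represented by its brightest probe set. Brightest means the highest mean over all 16 arrays, wing discs included. Between 42.5% and 43.2% of all probe sets read 4 or more on each brain array. The wild-type brain arrays differed from each other more (pooled SD 0.66 log2) than the scrib (0.45) or lgl (0.34) brain arrays did. For eIF-4a, whose 3′ and 5′ ends are read by separate control probe sets as a sign of RNA breakdown, the 3′ end exceeded the 5′ end by 2.32 and 2.70 log2 on the wild-type arrays and 1.78, 1.76 and 1.85 on the scrib arrays. The groups overlapped in the same measure for actin (0.98 and 0.99 against 1.06, 0.94 and 0.90) and GAPDH (0.56 and 0.66 against 0.52, 0.45 and 0.87). The part of RNA quality in the results was not tested. The model held all 16 arrays, so each SE and p-value draws on the spread within all 6 groups, lgl and wing discs included. The labels do not say whether samples of a group came from separate cultures, so p-values measure only the spread between these samples, which may be technical. The label of brain tissue was borne out by most of its markers. The neuronal genes elav, Syn and nSyb, the glial genes repo and moody and the neuroblast genes dpn, ase and mira all read above 6 on each of the 5 arrays. The neuronal gene brp, also set as a brain marker, read 4.43 and 6.01 on the wild-type arrays. It read 3.00, 3.22 and 3.00 on the scrib arrays.

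The RNA of the mutated gene was read first. The brightest scrib probe set read 7.25 and 8.09 on the wild-type arrays and 7.24, 7.88 and 7.78 on the scrib arrays (log2 -0.04 ± 0.31 SE, adjusted p = 0.95, range 0.36 to 1.0). The groups overlapped, and the test did not pass. A further tested scrib probe set, brighter on each scrib array, read 6.97 and 8.33 on the wild-type arrays and 9.10, 8.31 and 8.73 on the scrib arrays. There scrib replicate 2 lay just below wild-type replicate 2, and the other scrib arrays lay above both wild-type arrays. The log2 difference above therefore holds for 1 probe set only. The labels do not say that these alleles remove RNA, so the level is no check of the genotype. The partner gene l(2)gl read 9.89 and 8.93 on the wild-type arrays and 9.44, 9.60 and 9.05 on the scrib arrays (log2 -0.05 ± 0.65 SE, adjusted p = 0.97, range 0.65 to 1.0), against 2.21, 2.82 and 2.21 on the lgl brain arrays.

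The main question was which genes differ between scrib and wild-type brain complexes. At an adjusted p below 0.05, 3073 of 8819 probe sets (34.8%) passed in limma, of which 1740 were higher and 1333 lower in scrib. Among 7213 genes, 20.7% were called higher and 14.4% lower, and the median log2 difference over all genes was 0.09. The count was 780 when the spread was weighted by group, which let the wild-type arrays vary more, and 963 when the model held the 5 arrays alone. With each array left out in turn it ranged from 2480 to 3820, with both extremes reached by leaving out a wild-type array. After a gene's adjusted p, the range gives its lowest and highest value over up to 14 alternative settings, and calls that ended are named at the close of the paragraph with the adjusted p of that setting. Both the wild-type and the scrib arrays are bulk tissue, in which fewer cells of a type and less RNA per cell cannot be told apart. The counts of each gene list against wild type are to be read beside the 20.7% higher and 14.4% lower of all genes. Some genes, such as Timp, Dll and Antp, belong to more than 1 list and are counted in each, so the lists are not separate.

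The largest rises included genes of motile cilia, antimicrobial peptides and secreted signals. Zip102B, a zinc transporter, read 3.84 and 3.49 on the wild-type arrays and 10.24, 9.93 and 10.29 on the scrib arrays (at least 71.1-fold higher, log2 6.48 ± 0.16 SE, adjusted p = 3.5e-11, range 2.2e-11 to 0.0021). Tektin-C, a structural protein of sperm and cilia axonemes, read 2.31 and 2.48 on the wild-type arrays and 8.05, 8.16 and 8.25 on the scrib arrays (at least 17.8-fold, log2 5.76 ± 0.14 SE, adjusted p = 3.5e-11, range 2.2e-11 to 0.0017). The 3 scrib arrays of each gene lay close together and far above both wild-type arrays. Dnaaf3, an assembly factor of axonemal dyneins, was also near the array floor in wild type and read 2.22 and 2.21 on the wild-type arrays and 6.32, 5.81 and 6.75 on the scrib arrays (at least 4.9-fold, log2 4.08 ± 0.24 SE, adjusted p = 2.2e-07, range 1.9e-07 to 0.0097). Marf1, an RNA-binding protein named for its role in meiosis, rose at least 29.2-fold (log2 5.96 ± 0.32 SE, adjusted p = 9.2e-08, range 1.2e-08 to 0.0064), and the F-box gene Fbxl4 rose at least 9.77-fold (log2 4.67 ± 0.18 SE, adjusted p = 4.6e-09, range 3.7e-09 to 0.0064). The antimicrobial peptides Def and Drs rose at least 20.9-fold (log2 6.18 ± 0.90 SE, adjusted p = 0.00028, range 0.00015 to 0.058) and at least 18.3-fold (log2 5.35 ± 1.08 SE, adjusted p = 0.0024, range 0.0017 to 0.19). Def was at the floor of 2.21 on both wild-type arrays and read 6.94, 9.93 and 8.30 on the scrib arrays. Def (0.058) and Drs (0.19) lost their calls with array weights by group.

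Secreted factors and matrix genes were among the other large rises. Actbeta, an activin ligand, read 4.61 and 3.92 on the wild-type arrays and 8.43, 8.43 and 8.49 on the scrib arrays (at least 17.7-fold higher, log2 4.18 ± 0.31 SE, adjusted p = 2e-06, range 1.6e-06 to 0.0075). The scrib arrays agreed closely with one another, and neither wild-type array overlapped them. Tig, the integrin ligand tiggrin, rose at least 12.9-fold (log2 4.30 ± 0.70 SE, adjusted p = 0.0006, range 0.00015 to 0.038). NimB2, a secreted protein of the Nimrod family, rose 18.2-fold (log2 4.18 ± 0.56 SE, adjusted p = 0.00016, range 6.9e-05 to 0.017), and fj, a Golgi kinase that modifies the cadherins Fat and Dachsous, rose at least 15.3-fold (log2 4 ± 0.24 SE, adjusted p = 2.2e-07, range 6e-08 to 0.0097). Tdc1, a tyrosine decarboxylase, rose at least 19.4-fold (log2 4.93 ± 0.65 SE, adjusted p = 0.00014, range 6.5e-05 to 0.02). The chitin deacetylase verm rose at least 13.1-fold (log2 4.28 ± 0.97 SE, adjusted p = 0.0046, range 2.8e-06 to 0.13), but it read 2.86 on the first wild-type array and 7.79 on the second. The new glue genes ng1 and ng3 of the salivary gland rose at least 17.7-fold (log2 5.04 ± 1.16 SE, adjusted p = 0.005, range 0.002 to 0.2) and at least 58.1-fold (log2 6.63 ± 1.59 SE, adjusted p = 0.0065, range 0.0017 to 0.25), and both were highest on scrib replicate 3. The log2 difference of verm was 1.82 without wild-type replicate 1 and 6.75 without wild-type replicate 2. verm (0.13), ng1 (0.075) and ng3 (0.052) lost their calls in the fit on the 5 arrays alone. ng1 (0.2) and ng3 (0.25) lost their calls with array weights by group. ng1 (0.059) and ng3 (0.055) lost their calls without wild-type replicate 1.

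The largest falls held genes of neuronal excitability and of steroid hormone production. The calcium sensor Frq1 read 7.53 and 7.12 on the wild-type arrays and 2.72, 2.55 and 2.93 on the scrib arrays (at least 10-fold lower, log2 -4.59 ± 0.25 SE, adjusted p = 1.1e-07, range 9.6e-08 to 0.0064). Gabat, which breaks down the transmitter GABA, read 7.38 and 6.69 on the wild-type arrays and 2.60, 2.47 and 2.81 on the scrib arrays (at least 8.2-fold lower, log2 -4.41 ± 0.22 SE, adjusted p = 6.9e-08, range 6.5e-08 to 0.0075). In both genes each scrib array lay below 3 and each wild-type array above 6.5. The potassium channel genes Irk2 (at least 7.31-fold lower, log2 -4.23 ± 0.23 SE, adjusted p = 9.3e-08, range 8.2e-08 to 0.0096) and SK (at least 12.1-fold lower, log2 -3.62 ± 0.52 SE, adjusted p = 0.00026, range 9e-05 to 0.036) fell, as did the glutamate-gated chloride channel GluClalpha (at least 5.45-fold lower, log2 -3.58 ± 0.29 SE, adjusted p = 3.7e-06, range 8.6e-07 to 0.02). The transcription factor FoxP read 8.40 and 8.44 on the wild-type arrays and 4.65, 4.29 and 3.81 on the scrib arrays (at least 17.2-fold lower, log2 -4.17 ± 0.23 SE, adjusted p = 9.9e-08, range 8.7e-08 to 0.0096), and NfI, a nuclear factor I protein, fell at least 6.91-fold (log2 -3.66 ± 0.57 SE, adjusted p = 0.00044, range 2e-05 to 0.061). NimA, a putative phagocytic receptor of the Nimrod family, read 7.27 and 8.37 on the wild-type arrays and 2.89, 2.79 and 3.16 on the scrib arrays (at least 14.1-fold lower, log2 -4.88 ± 0.25 SE, adjusted p = 6.9e-08, range 1.1e-08 to 0.0097). NfI (0.061) lost its call in the fit on the 5 arrays alone.

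The remaining large falls were in genes tied to hormones and to secreted proteins. Jhbp2, of the family of juvenile hormone binding proteins, fell at least 24.6-fold (log2 -5.51 ± 0.77 SE, adjusted p = 0.00021, range 0.00011 to 0.025). The steroidogenic genes spok and nvd fell at least 37.5-fold (log2 -5.26 ± 1.48 SE, adjusted p = 0.015, range 0.011 to 0.19) and at least 4.52-fold (log2 -3.70 ± 0.34 SE, adjusted p = 9.7e-06, range 9.7e-06 to 0.0096). Ilp5, an insulin-like peptide, fell 24-fold (log2 -4.58 ± 0.98 SE, adjusted p = 0.0034, range 0.0014 to 0.089). ImpE1 and ImpE2, named as ecdysone-inducible genes, fell 12.5-fold (log2 -3.64 ± 0.81 SE, adjusted p = 0.0042, range 0.0013 to 0.061) and at least 10.3-fold (log2 -5.08 ± 1.52 SE, adjusted p = 0.02, range 0.0019 to 0.42). The serpin Spn43Aa fell at least 16.2-fold (log2 -5.01 ± 1.2 SE, adjusted p = 0.0066, range 0.0012 to 0.17). In all 7 genes the scrib arrays lay below both wild-type arrays, although the wild-type arrays themselves differed by over 2 log2 for Jhbp2, ImpE1, ImpE2 and Spn43Aa. Ilp5 (0.069), ImpE1 (0.061) and Spn43Aa (0.066) lost their calls in the fit on the 5 arrays alone. spok (0.057) and ImpE2 (0.072) lost their calls with no filter. spok (0.19), Ilp5 (0.089), ImpE2 (0.42) and Spn43Aa (0.17) lost their calls with array weights by group. spok (0.077) lost its call without wild-type replicate 1. ImpE2 (0.12) and Spn43Aa (0.074) lost their calls without wild-type replicate 2. spok (0.055) lost its call without scrib replicate 1.

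**Figure D1:**
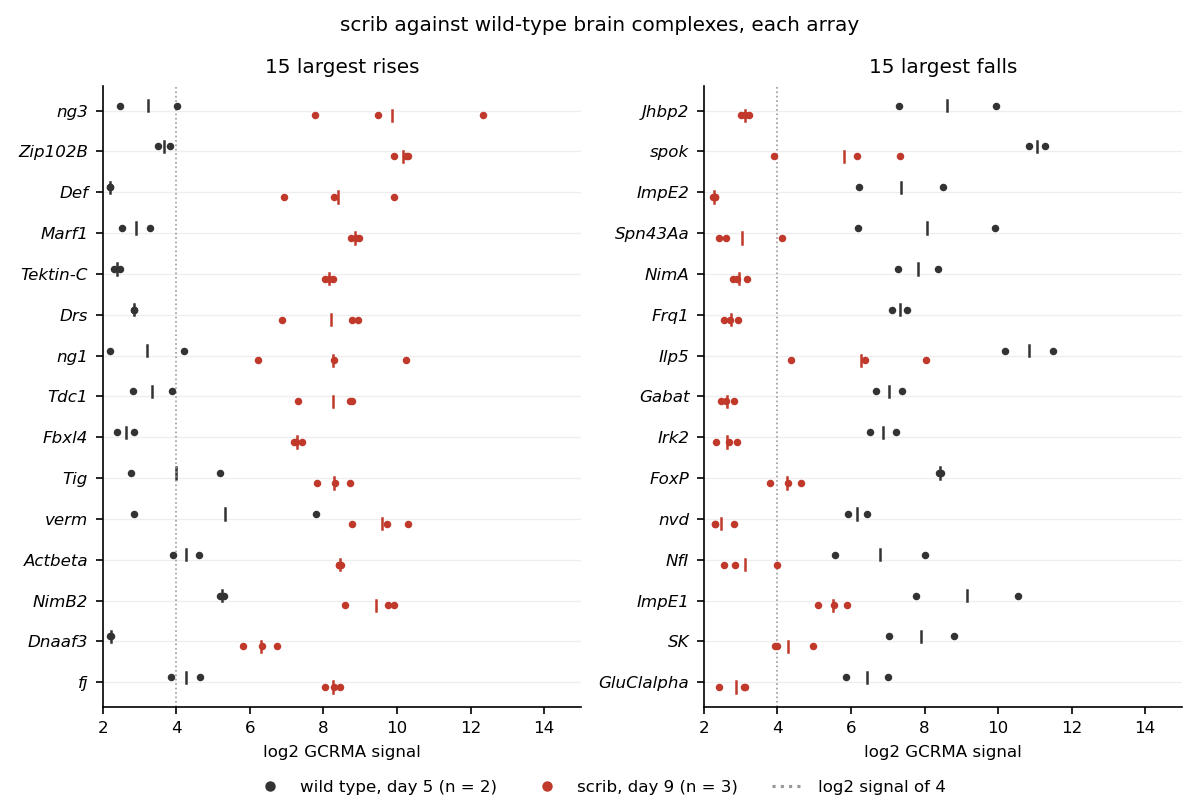
Log2 signal of the 15 largest rises (left) and 15 largest falls (right) on each wild-type array (black, n = 2) and each scrib array (red, n = 3). Points are arrays, short bars are group means and the dotted line marks a log2 signal of 4, the level used to filter probe sets. No scrib array overlaps a wild-type array, which the choice of genes required, and verm, ng3, ng1, Spn43Aa, Ilp5 and spok show the widest spread within a group.

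Genes of neuroblasts and of the optic lobe were among those higher in scrib brains. Of 16 neuroblast genes tested, 7 were called higher and 1 lower, against 20.7% and 14.4% of all genes, with a median log2 difference of 1.42. The HES factor dpn, which maintains neuroblasts, read 8.91 and 9.28 on the wild-type arrays and 10.99, 10.36 and 11.01 on the scrib arrays (3.24-fold higher, log2 1.69 ± 0.29 SE, adjusted p = 0.00081, range 0.0004 to 0.13). The adaptor insc, which orients the neuroblast spindle, read 7.06 and 8.49 on the wild-type arrays and 10.93, 10.37 and 10.96 on the scrib arrays (7.9-fold higher, log2 2.98 ± 0.68 SE, adjusted p = 0.0047, range 0.0032 to 0.062). The scrib arrays lay above both wild-type arrays in each. The segregating adaptor mira rose 5.12-fold (log2 2.36 ± 0.84 SE, adjusted p = 0.045, range 0.0022 to 0.52), and the transcription factors grh, btd, klu and nab rose 3.52-fold (log2 1.82 ± 0.20 SE, adjusted p = 4.1e-05, range 1.5e-05 to 0.012), 5.2-fold (log2 2.38 ± 0.58 SE, adjusted p = 0.0072, range 0.0035 to 0.22), 2.69-fold (log2 1.43 ± 0.41 SE, adjusted p = 0.017, range 0.0058 to 0.17) and 2.65-fold (log2 1.41 ± 0.41 SE, adjusted p = 0.018, range 0.0016 to 0.24). Other neuroblast genes did not pass. The gene ase, a proneural factor of type I neuroblasts, read 10.36 and 9.49 on the wild-type arrays and 10.43, 9.72 and 10.33 on the scrib arrays and overlapped (log2 0.23 ± 0.74 SE, adjusted p = 0.84, range 0.62 to 1.0), and wor, a Snail-family factor, had a log2 difference of 1.45 ± 0.83 SE (adjusted p = 0.2). The Sox factor Sox102F fell 5.35-fold (log2 -2.42 ± 0.28 SE, adjusted p = 6.2e-05, range 2.3e-05 to 0.018). The 7 rises became 2 with array weights by group and 2 without wild-type replicate 1. btd (0.082), klu (0.088) and nab (0.12) lost their calls in the fit on the 5 arrays alone. mira (0.14), klu (0.055) and nab (0.056) lost their calls with no filter. mira (0.069) lost its call with the replicate block. dpn (0.13), mira (0.52), btd (0.22), klu (0.12) and nab (0.24) lost their calls with array weights by group. insc (0.062), mira (0.22), btd (0.09), klu (0.17) and nab (0.24) lost their calls without wild-type replicate 1. mira (0.057) lost its call without wild-type replicate 2. mira (0.099) lost its call without scrib replicate 1. mira (0.077) lost its call without scrib replicate 2. mira (0.083) and klu (0.056) lost their calls without scrib replicate 3. wor (0.049) passed in the fit on the 5 arrays alone. wor (0.0082) passed in the fit on the brain arrays. Each scrib array of wor lay above both wild-type arrays.

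Among 14 genes of the optic lobe neuroepithelium and medulla, 4 were called higher and 0 lower (median log2 0.59), against 20.7% and 14.4% of all genes. Rx, a homeobox factor of the anterior brain, read 3.56 and 5.64 on the wild-type arrays and 8.19, 7.62 and 8.36 on the scrib arrays (at least 9.44-fold higher, log2 3.46 ± 0.42 SE, adjusted p = 8.3e-05, range 2.4e-07 to 0.042). The medulla neuron factor bsh read 2.23 and 4.48 on the wild-type arrays and 6.44, 5.76 and 6.38 on the scrib arrays (at least 3.87-fold higher, log2 2.84 ± 0.45 SE, adjusted p = 0.00048, range 4.4e-07 to 0.069). Each scrib array lay above both wild-type arrays, and wild-type replicate 1 read below 4 in both genes. Optix, which marks part of the neuroepithelium, rose 4.34-fold (log2 2.12 ± 0.54 SE, adjusted p = 0.0092, range 0.0049 to 0.33), and tll rose 2.63-fold (log2 1.40 ± 0.45 SE, adjusted p = 0.03, range 0.0054 to 0.41). The other 10 members did not pass, among them ey (0.66 ± 0.36 SE, adjusted p = 0.17) and eya (0.73 ± 0.42 SE, adjusted p = 0.19). With array weights by group or without wild-type replicate 1 the 4 rises became 2. bsh (0.069) and tll (0.1) lost their calls in the fit on the 5 arrays alone. tll (0.09) lost its call with no filter. Optix (0.33) and tll (0.41) lost their calls with array weights by group. Optix (0.087) and tll (0.32) lost their calls without wild-type replicate 1. tll (0.064) lost its call without scrib replicate 1. tll (0.06) lost its call without scrib replicate 2. tll (0.06) lost its call without scrib replicate 3. ey (0.025) passed in the fit on the brain arrays. eya (0.023) passed without wild-type replicate 2.

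The lists of DNA replication and mitosis held the largest shares of genes called higher among all lists. Of 20 replication genes, 15 were called higher and 0 lower (median log2 1.12), and of 16 mitotic genes, 12 were higher and 0 lower (median log2 1.05). The replicative helicase subunit Mcm2 read 10.96 and 11.04 on the wild-type arrays and 12.59, 12.25 and 12.45 on the scrib arrays (2.7-fold higher, log2 1.43 ± 0.17 SE, adjusted p = 6.8e-05, range 2e-05 to 0.022). Its partners dpa, Mcm5 and Mcm6 rose 2.56-fold, 2.36-fold and 2.51-fold, with log2 differences of 1.36 ± 0.17, 1.24 ± 0.16 and 1.33 ± 0.18 SE (adjusted p = 8.5e-05, 0.00014 and 0.00019). Orc1, of the origin recognition complex, and PolE1, a DNA polymerase, rose 2.91-fold (log2 1.54 ± 0.19 SE, adjusted p = 0.00011, range 3.1e-05 to 0.036) and 2.26-fold (log2 1.18 ± 0.16 SE, adjusted p = 0.00015, range 0.00013 to 0.03). The sliding clamp PCNA, already at 12.61 and 12.34 in wild type, had a log2 difference of 0.42 ± 0.18 SE (adjusted p = 0.094).

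In the mitotic list the largest rise was in Incenp, of the chromosomal passenger complex, which read 8.43 and 9.97 on the wild-type arrays and 11.59, 11.46 and 11.35 on the scrib arrays (4.82-fold higher, log2 2.27 ± 0.33 SE, adjusted p = 0.00029, range 4e-06 to 0.05). The central spindle gene feo read 9.99 and 10.68 on the wild-type arrays and 12.15, 12.04 and 12.06 on the scrib arrays (3.35-fold higher, log2 1.75 ± 0.19 SE, adjusted p = 4e-05, range 9.3e-06 to 0.026). All 3 scrib arrays lay above both wild-type arrays in each. The kinesin ncd rose 2.6-fold (log2 1.38 ± 0.17 SE, adjusted p = 7.7e-05, range 2.9e-05 to 0.025), the cytokinesis gene pbl rose 2.12-fold (log2 1.08 ± 0.15 SE, adjusted p = 0.00021, range 9.5e-05 to 0.039), the mitotic cyclin CycB rose 1.93-fold (log2 0.95 ± 0.18 SE, adjusted p = 0.0014, range 0.0004 to 0.08) and the anaphase activator fzy rose 2.33-fold (log2 1.22 ± 0.20 SE, adjusted p = 0.0006, range 2.1e-05 to 0.06). With array weights by group, 10 replication and 9 mitotic genes were called higher, more than in any other list, and with 1 array left out at least 12 and 11 were. Of 19 ribosome biogenesis genes, 5 were higher and 0 lower (median log2 0.18), led by the nucleolar GTPase Non1, which rose 4.09-fold (log2 2.03 ± 0.16 SE, adjusted p = 2.7e-06, range 2.5e-07 to 0.011). The rRNA methylase Fib rose 2.83-fold (log2 1.5 ± 0.36 SE, adjusted p = 0.0066, range 2e-05 to 0.14), from 8.55 and 10.27 in wild type. The 0 falls became 4 without wild-type replicate 2 of this list. CycB (0.08), fzy (0.06) and Fib (0.14) lost their calls in the fit on the 5 arrays alone. Fib (0.051) lost its call without wild-type replicate 1.

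Genes of neuronal differentiation were lower in scrib brains. Of 15 tested, 11 were called lower and 0 higher, against 14.4% and 20.7% of all genes, with a median log2 difference of -2.05. The median level of the list was 10.98 and 10.77 on the wild-type arrays and 9.18, 9.20 and 9.18 on the scrib arrays. The RNA-binding protein elav, a marker of all neurons, read 11.35 and 12.65 on the wild-type arrays and 10.97, 9.28 and 9.18 on the scrib arrays (4.57-fold lower, log2 -2.19 ± 0.53 SE, adjusted p = 0.0068, range 0.00081 to 0.17). The synaptic vesicle protein Syn read 10.98 and 10.64 on the wild-type arrays and 9.18, 9.20 and 9.31 on the scrib arrays (2.98-fold lower, log2 -1.58 ± 0.26 SE, adjusted p = 0.00064, range 0.0006 to 0.097). The vesicle fusion protein nSyb read 8.68 and 8.07 on the wild-type arrays and 6.49, 6.82 and 6.82 on the scrib arrays (3.17-fold lower, log2 -1.67 ± 0.32 SE, adjusted p = 0.0019, range 0.0013 to 0.053). No scrib array reached a wild-type array in these 3 genes. The active zone genes unc-13 and brp fell 3.62-fold (log2 -1.86 ± 0.27 SE, adjusted p = 0.00026, range 0.00011 to 0.027) and at least 2.33-fold (log2 -2.14 ± 0.37 SE, adjusted p = 0.00079, range 4.7e-05 to 0.058). The microtubule protein futsch and the GABA receptor Rdl fell 4.29-fold (log2 -2.10 ± 0.35 SE, adjusted p = 0.00069, range 0.00056 to 0.096) and 4.13-fold (log2 -2.05 ± 0.37 SE, adjusted p = 0.0011, range 0.00043 to 0.12). The list held 11 falls in the model over all arrays but 2 with array weights by group, and 8 to 10 with 1 array left out. elav (0.12) and brp (0.058) lost their calls in the fit on the 5 arrays alone. elav (0.17), Syn (0.097), nSyb (0.053), futsch (0.096) and Rdl (0.12) lost their calls with array weights by group. elav (0.066) lost its call without wild-type replicate 2.

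Transmitter genes were called lower more often than higher. Of 12, 4 were called lower and 1 higher (median log2 -1.16). The vesicular transporters VGlut of glutamate, VGAT of GABA and Vmat of monoamines fell at least 2.29-fold (log2 -1.90 ± 0.31 SE, adjusted p = 0.00057, range 0.00012 to 0.072), 2.56-fold (log2 -1.36 ± 0.23 SE, adjusted p = 0.00073, range 0.00046 to 0.12) and at least 4.7-fold (log2 -2.62 ± 0.47 SE, adjusted p = 0.0011, range 0.00035 to 0.11). Tbh, which makes octopamine, fell at least 2.6-fold (log2 -1.78 ± 0.55 SE, adjusted p = 0.024, range 3.6e-05 to 0.35), with a log2 difference of -0.44 without wild-type replicate 1 and -3.12 without wild-type replicate 2. The cholinergic genes ChAT (-0.62 ± 0.43 SE, adjusted p = 0.29) and VAChT (-1.02 ± 0.51 SE, adjusted p = 0.14) and the GABA enzyme Gad1 (-0.93 ± 0.49 SE, adjusted p = 0.16) did not pass, and these 3 passed in the fit on the brain arrays (0.028, 0.037 and 0.029). For ChAT, VAChT and Gad1 each scrib array lay below both wild-type arrays. The 1 rise was in Tdc1, described above, while Tdc2 of the same list did not pass (-0.71 ± 0.39 SE, adjusted p = 0.17). VGlut (0.072) and Tbh (0.21) lost their calls in the fit on the 5 arrays alone. Tbh (0.11) lost its call in the fit on the brain arrays. Tbh (0.079) lost its call with no filter. VGAT (0.12), Vmat (0.11) and Tbh (0.12) lost their calls with array weights by group. Tbh (0.35) lost its call without wild-type replicate 1. Tbh (0.069) lost its call without scrib replicate 3.

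Axon growth and guidance genes were also lower more often than higher, with 7 of 16 called lower and 1 higher (median log2 -0.79). The cell adhesion gene beat-Ia read 8.62 and 8.09 on the wild-type arrays and 6.31, 4.47 and 5.74 on the scrib arrays (7.19-fold lower, log2 -2.85 ± 0.39 SE, adjusted p = 0.00018, range 5.8e-05 to 0.048). The guidance cue NetB read 9.47 and 9.56 on the wild-type arrays and 7.69, 6.93 and 7.69 on the scrib arrays (4.22-fold lower, log2 -2.08 ± 0.27 SE, adjusted p = 0.00014, range 4.3e-05 to 0.034). In both genes each scrib array lay below both wild-type arrays. The leucine-rich repeat protein caps fell 3.56-fold (log2 -1.83 ± 0.31 SE, adjusted p = 0.00069, range 0.00036 to 0.053), the receptor phosphatases Lar and Ptp69D fell 2.14-fold (log2 -1.09 ± 0.23 SE, adjusted p = 0.003, range 0.00055 to 0.13) and 2.28-fold (log2 -1.19 ± 0.23 SE, adjusted p = 0.0016, range 0.00047 to 0.098), and the teneurin Ten-m fell 2.07-fold (log2 -1.05 ± 0.26 SE, adjusted p = 0.008, range 0.0046 to 0.095). The phosphatase Ptp10D was the 1 rise (1.81-fold, log2 0.85 ± 0.19 SE, adjusted p = 0.0044, range 0.002 to 0.17), and the midline repellent sli did not pass (-0.01 ± 0.43 SE, adjusted p = 0.99). caps (0.053), Lar (0.057), Ptp69D (0.054), Ten-m (0.09) and Ptp10D (0.052) lost their calls in the fit on the 5 arrays alone. Lar (0.13), Ptp69D (0.098), Ten-m (0.095) and Ptp10D (0.17) lost their calls with array weights by group. Ten-m (0.075) lost its call without wild-type replicate 2.

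**Figure D2:**
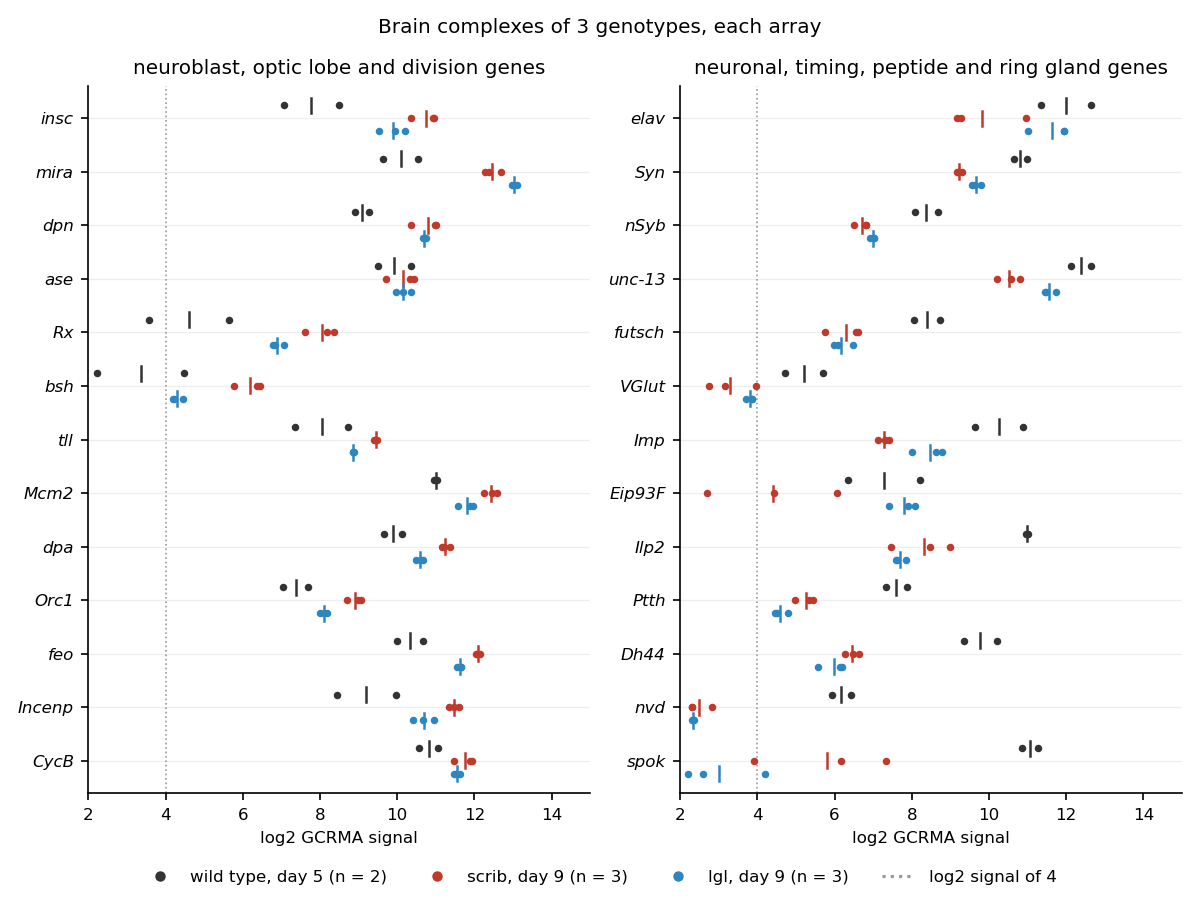
Log2 signal of neuroblast, optic lobe and division genes (left) and of neuronal, timing, peptide and ring gland genes (right) on each wild-type (black, n = 2), scrib (red, n = 3) and lgl (blue, n = 3) brain array. Points are arrays, short bars are group means and the dotted line marks 4. The left genes lie to the right of wild type in scrib except for ase, and the right genes lie to the left, with Mcm2, dpa and Orc1 higher in scrib than in lgl. The genes drawn were chosen after their values were seen.

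Of 20 glial markers, 5 were called lower and 0 higher (median log2 -0.32). These 5 falls became 3 without scrib replicate 1 and 1 with array weights by group. They include Vmat, already counted as a fall in the transmitter list. The glial fate factor repo read 8.61 and 9.67 on the wild-type arrays and 8.82, 8.52 and 9.22 on the scrib arrays (log2 -0.28 ± 0.37 SE, adjusted p = 0.59, range 0.17 to 0.98), and moody, a receptor of the blood-brain barrier, read 8.93 and 9.17 on the wild-type arrays and 8.84, 9.11 and 8.84 on the scrib arrays (log2 -0.12 ± 0.27 SE, adjusted p = 0.76, range 0.47 to 1.0). The groups overlapped in both. The falls included Nckx30C, a sodium-calcium-potassium exchanger (at least 1.93-fold, log2 -2.57 ± 0.23 SE, adjusted p = 9.8e-06, range 3.3e-06 to 0.018), the FGF receptor htl (2.38-fold, log2 -1.25 ± 0.26 SE, adjusted p = 0.0029, range 0.0017 to 0.14), glutamine synthetase Gs2 (3.16-fold, log2 -1.66 ± 0.51 SE, adjusted p = 0.024, range 0.017 to 0.33) and the citrate transporter Indy (2.0-fold, log2 -1 ± 0.29 SE, adjusted p = 0.016, range 0.0098 to 0.26). htl (0.087), Gs2 (0.071) and Indy (0.093) lost their calls in the fit on the 5 arrays alone. Gs2 (0.077) lost its call with no filter. htl (0.14), Gs2 (0.33) and Indy (0.26) lost their calls with array weights by group. Gs2 (0.18) lost its call without wild-type replicate 1. Indy (0.11) lost its call without wild-type replicate 2. Gs2 (0.076) and Indy (0.059) lost their calls without scrib replicate 1. Gs2 (0.054) lost its call without scrib replicate 3.

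Several factors that mark the age of neuroblasts and neurons were lower. Of 13 temporal and hormone-timed genes, 6 were called lower and 1 higher (median log2 -0.73). Imp, an RNA-binding protein of early-born neurons and young neuroblasts, read 10.89 and 9.63 on the wild-type arrays and 7.30, 7.13 and 7.41 on the scrib arrays (7.89-fold lower, log2 -2.98 ± 0.38 SE, adjusted p = 0.00012, range 4.7e-05 to 0.03). Its counterpart Syp, which rises in late neuroblasts, read 13.34 and 13.15 on the wild-type arrays and 12.23, 12.22 and 13.08 on the scrib arrays and did not pass (log2 -0.73 ± 0.32 SE, adjusted p = 0.098, range 0.029 to 0.52), and chinmo had a log2 difference of -0.64 ± 0.38 SE (adjusted p = 0.21). Eip93F, an ecdysone-induced factor of late neuroblasts, read 6.34 and 8.21 on the wild-type arrays and 4.44, 2.70 and 6.07 on the scrib arrays (at least 5.41-fold lower, log2 -2.87 ± 0.72 SE, adjusted p = 0.0087, range 0.00073 to 0.17). Embryonic temporal factors were called both ways, with Kr lower (at least 2.46-fold, log2 -1.85 ± 0.44 SE, adjusted p = 0.0064, range 0.00012 to 0.14), nub lower (at least 2.33-fold, log2 -1.32 ± 0.29 SE, adjusted p = 0.0037, range 0.0014 to 0.097) and cas higher (3.9-fold, log2 1.96 ± 0.61 SE, adjusted p = 0.026, range 0.00091 to 0.49). For pdm2 both group means lay below 4, so no fold is given. The log2 difference of Kr was -0.90 without wild-type replicate 1 and -2.80 without wild-type replicate 2, and the 6 falls became 1 with array weights by group. The 1 rise became 0 without wild-type replicate 1, wild-type replicate 2, scrib replicate 1, scrib replicate 2 or scrib replicate 3. Eip93F (0.16), Kr (0.14) and nub (0.097) lost their calls in the fit on the 5 arrays alone. Eip93F (0.064) lost its call in the fit on the brain arrays. cas (0.084) lost its call with no filter. Eip93F (0.17), Kr (0.078), nub (0.094) and cas (0.49) lost their calls with array weights by group. Kr (0.081) and cas (0.089) lost their calls without wild-type replicate 1. Eip93F (0.086) and cas (0.076) lost their calls without wild-type replicate 2. cas (0.052) lost its call without scrib replicate 1. cas (0.052) lost its call without scrib replicate 2. cas (0.059) lost its call without scrib replicate 3. Syp (0.029) passed without scrib replicate 3.

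Many peptide hormones were lower. Of 22, 10 were called lower and 1 higher (median log2 -1.51). Ptth, the brain hormone that drives ecdysone release, read 7.88 and 7.32 on the wild-type arrays and 5.34, 5.45 and 4.98 on the scrib arrays (5.08-fold lower, log2 -2.34 ± 0.22 SE, adjusted p = 1.3e-05, range 1.3e-05 to 0.018). Dh44, a diuretic hormone, read 10.20 and 9.34 on the wild-type arrays and 6.48, 6.64 and 6.26 on the scrib arrays (9.91-fold lower, log2 -3.31 ± 0.71 SE, adjusted p = 0.0033, range 0.0011 to 0.036). No scrib array overlapped wild type in either. The insulin-like peptide Ilp2 fell 6.42-fold (log2 -2.68 ± 0.79 SE, adjusted p = 0.019, range 0.0048 to 0.16), Dh31 and Mip fell 3.8-fold (log2 -1.93 ± 0.33 SE, adjusted p = 0.00085, range 4e-06 to 0.076) and 3.19-fold (log2 -1.68 ± 0.38 SE, adjusted p = 0.0044, range 0.0041 to 0.12), and the eclosion hormone Eh fell 3.47-fold (log2 -1.80 ± 0.40 SE, adjusted p = 0.0046, range 0.00079 to 0.11). ETH, the ecdysis triggering hormone of tracheal endocrine cells, rose 3.41-fold (log2 1.77 ± 0.28 SE, adjusted p = 0.00055, range 0.00022 to 0.046). Ilp8, the relaxin-like signal of growing discs, read 3.79 and 4.82 on the wild-type arrays and 4.90, 6.85 and 3.77 on the scrib arrays (log2 0.87 ± 0.75 SE, adjusted p = 0.39, range 0.11 to 0.98) with overlapping groups. Called falls numbered 3 with group weights, 5 without wild-type replicate 1 and 6 without scrib replicate 1. Dh31 (0.076), Mip (0.056) and Eh (0.11) lost their calls in the fit on the 5 arrays alone. Ilp2 (0.065) lost its call with no filter. Ilp2 (0.16), Mip (0.12) and Eh (0.098) lost their calls with array weights by group. Ilp2 (0.078) and Eh (0.068) lost their calls without wild-type replicate 1. Ilp2 (0.055) lost its call without wild-type replicate 2. Ilp2 (0.063) lost its call without scrib replicate 1.

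Of 13 ring gland genes, 7 were lower and 0 higher (median log2 -0.98). These included the ecdysone synthesis genes spok and nvd, described above, phtm, which read 7.39 and 8.79 on the wild-type arrays and 4.11, 5.06 and 5.76 on the scrib arrays (8.65-fold lower, log2 -3.11 ± 0.83 SE, adjusted p = 0.012, range 0.0057 to 0.21), and sro (at least 2.5-fold lower, log2 -2.06 ± 0.32 SE, adjusted p = 0.00039, range 0.00038 to 0.075). The cholesterol carrier Start1 fell 1.98-fold (log2 -0.98 ± 0.17 SE, adjusted p = 0.00094, range 0.00062 to 0.065), and Cyp6g2, a cytochrome P450, fell at least 2.67-fold (log2 -1.75 ± 0.33 SE, adjusted p = 0.0014, range 0.0013 to 0.089). Akh, the adipokinetic hormone of the corpora cardiaca, read 10.67 and 9.73 on the wild-type arrays and 8.13, 8.12 and 7.63 on the scrib arrays with no overlap but missed the threshold (log2 -2.24 ± 0.82 SE, adjusted p = 0.051, range 0.031 to 0.55), and jhamt, of juvenile hormone synthesis, read 5.51 and 2.75 on the wild-type arrays and 2.21, 3.85 and 3.85 on the scrib arrays (log2 -0.83 ± 0.82 SE, adjusted p = 0.46, range 0.057 to 0.84). The log2 of the summed signal of the 13 genes was 12.64 and 12.79 in wild type and 11.64, 11.56 and 11.70 in scrib. Whether the ring gland was a smaller share of the scrib dissections was not tested. The count of falls was 1 with array weights by group. Start1 (0.065) and Cyp6g2 (0.061) lost their calls in the fit on the 5 arrays alone. phtm (0.21), sro (0.075), Start1 (0.055) and Cyp6g2 (0.089) lost their calls with array weights by group. phtm (0.086) lost its call without wild-type replicate 2. Akh (0.031) passed in the fit on the 5 arrays alone. Akh (0.031) passed in the fit on the brain arrays. Akh (0.048) passed with the filter at 6. Akh (0.041) passed with a trended and robust variance. Akh (0.049) passed with 1 probe set per gene.

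Genes that respond to ecdysone gave 5 lower and 0 higher of 13 (median log2 -0.46), with ImpE1 and ImpE2 described above. The nuclear receptor Hr39 fell 1.8-fold (log2 -0.85 ± 0.21 SE, adjusted p = 0.0071, range 0.003 to 0.17), and the methionine sulfoxide reductase MsrA, known also as Eip71CD, fell 2.47-fold (log2 -1.31 ± 0.30 SE, adjusted p = 0.0046, range 0.0011 to 0.13). The receptor EcR itself read 7.27 and 7.66 on the wild-type arrays and 7.80, 7.45 and 7.84 on the scrib arrays (log2 0.23 ± 0.18 SE, adjusted p = 0.35, range 0.12 to 0.93). Of 12 insulin and growth genes, 4 were lower and 1 higher (median log2 -0.32). Sdr, a secreted decoy of the insulin receptor, read 8.01 and 7.60 on the wild-type arrays and 4.96, 4.89 and 4.45 on the scrib arrays (8.21-fold lower, log2 -3.04 ± 0.23 SE, adjusted p = 2.1e-06, range 1.9e-06 to 0.011), and the receptor kinase Alk fell 2.77-fold (log2 -1.47 ± 0.20 SE, adjusted p = 0.00019, range 0.00015 to 0.027). The insulin receptor InR and the kinase Akt fell 1.81-fold (log2 -0.86 ± 0.25 SE, adjusted p = 0.018, range 0.0032 to 0.31) and 1.8-fold (log2 -0.85 ± 0.19 SE, adjusted p = 0.0048, range 0.003 to 0.15). In the insulin list the 1 rise became 0 without wild-type replicate 1, scrib replicate 1, scrib replicate 2 or scrib replicate 3 and 2 without wild-type replicate 2. Hr39 (0.063), MsrA (0.093), InR (0.15) and Akt (0.11) lost their calls in the fit on the 5 arrays alone. InR (0.053) lost its call in the fit on the brain arrays. Hr39 (0.17), MsrA (0.13), InR (0.31) and Akt (0.15) lost their calls with array weights by group. MsrA (0.065) and InR (0.16) lost their calls without wild-type replicate 1. InR (0.061) lost its call without scrib replicate 2.

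Genes of cell polarity were called in both directions. Of 15 polarity genes, 3 were higher and 2 lower (median log2 -0.04). The 3 rises became 5 without wild-type replicate 2, and the 2 falls became 1 without wild-type replicate 2, scrib replicate 2 or scrib replicate 3. The apical determinants crb and baz rose 2.48-fold (log2 1.31 ± 0.31 SE, adjusted p = 0.0058, range 0.0022 to 0.12) and 4.36-fold (log2 2.12 ± 0.54 SE, adjusted p = 0.0086, range 0.00028 to 0.13), kst, a heavy spectrin of the apical membrane, rose 2.1-fold (log2 1.07 ± 0.21 SE, adjusted p = 0.0019, range 0.0016 to 0.11), and sdt, the partner of crb, fell 1.71-fold (log2 -0.78 ± 0.24 SE, adjusted p = 0.023, range 0.005 to 0.17). The kinase par-1 fell 1.9-fold (log2 -0.92 ± 0.22 SE, adjusted p = 0.0065, range 0.0041 to 0.11), and dlg1, of the Scrib group, read 7.86 and 8.92 on the wild-type arrays and 7.61, 7.34 and 7.42 on the scrib arrays (log2 -0.93 ± 0.43 SE, adjusted p = 0.11, range 0.036 to 0.56). Among 13 junction genes 2 were higher and 1 lower, with E-cadherin, shg, up 2.02-fold (log2 1.01 ± 0.23 SE, adjusted p = 0.0047, range 0.0043 to 0.2) and alpha-Cat, its link to actin, down 1.99-fold (log2 -1 ± 0.15 SE, adjusted p = 0.00029, range 9.4e-05 to 0.04). In the junction list the 2 rises became 1 without wild-type replicate 1 or scrib replicate 2 and 4 without scrib replicate 1. The log2 difference of baz was 1.03 without wild-type replicate 1 and 3.22 without wild-type replicate 2. crb (0.087), baz (0.11), sdt (0.099) and par-1 (0.093) lost their calls in the fit on the 5 arrays alone. sdt (0.053) lost its call with no filter. crb (0.12), kst (0.11), sdt (0.12), par-1 (0.11) and shg (0.2) lost their calls with array weights by group. baz (0.13) lost its call without wild-type replicate 1. sdt (0.17) and par-1 (0.055) lost their calls without wild-type replicate 2. sdt (0.051) lost its call without scrib replicate 2. sdt (0.064) lost its call without scrib replicate 3. dlg1 (0.036) passed with quantile normalization added.

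The Hippo and Fat-Dachsous list had 6 of 16 genes higher and 3 lower (median log2 0.70). The large rise of fj is given above, and the cadherin ds rose 2.07-fold (log2 1.05 ± 0.29 SE, adjusted p = 0.015, range 0.005 to 0.24). The upstream members ex, a target and regulator of the pathway, and Mer rose 3.26-fold (log2 1.70 ± 0.39 SE, adjusted p = 0.0047, range 0.00041 to 0.11) and 3.97-fold (log2 1.99 ± 0.37 SE, adjusted p = 0.0014, range 2.5e-06 to 0.085), and the scaffold sav rose 2.82-fold (log2 1.5 ± 0.32 SE, adjusted p = 0.0032, range 2e-05 to 0.1). The effector yki rose 2.07-fold (log2 1.05 ± 0.36 SE, adjusted p = 0.04, range 0.00046 to 0.53), but its log2 difference was 0.27 without wild-type replicate 1 and 1.83 without wild-type replicate 2. The kinase hpo fell 1.46-fold (log2 -0.55 ± 0.17 SE, adjusted p = 0.023, range 0.011 to 0.21). The 6 rises became 3 both with array weights by group and without wild-type replicate 1. The 3 falls became 1 without wild-type replicate 2 or scrib replicate 2. ds (0.1), ex (0.11), Mer (0.085), sav (0.1), yki (0.21) and hpo (0.19) lost their calls in the fit on the 5 arrays alone. yki (0.093) and hpo (0.079) lost their calls in the fit on the brain arrays. yki (0.11) lost its call with no filter. ds (0.24), ex (0.089), yki (0.098) and hpo (0.21) lost their calls with array weights by group. ds (0.065), ex (0.068) and yki (0.53) lost their calls without wild-type replicate 1. hpo (0.15) lost its call without wild-type replicate 2. yki (0.068) lost its call without scrib replicate 1. ds (0.055), yki (0.078) and hpo (0.082) lost their calls without scrib replicate 2. yki (0.086) lost its call without scrib replicate 3.

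Of 18 genes of JNK signalling and its targets, 6 were higher and 2 lower (median log2 0.55). The calls were spread over targets, ligands, receptors and the kinase. The metalloprotease inhibitor Timp read 5.52 and 4.58 on the wild-type arrays and 7.61, 7.5 and 8.13 on the scrib arrays (6.48-fold higher, log2 2.70 ± 0.28 SE, adjusted p = 2.4e-05, range 1.1e-05 to 0.024). The filamin cher read 7.28 and 7.23 on the wild-type arrays and 8.66, 9.85 and 9.38 on the scrib arrays (4.12-fold higher, log2 2.04 ± 0.27 SE, adjusted p = 0.00013, range 1.6e-05 to 0.04). The secreted protease homologue scaf rose 6.85-fold (log2 2.78 ± 0.50 SE, adjusted p = 0.0011, range 0.00019 to 0.049), Pvf1, a PDGF and VEGF-like ligand, rose at least 3.47-fold (log2 3.41 ± 0.76 SE, adjusted p = 0.0042, range 0.0028 to 0.065), and the TNF receptor grnd rose at least 2.09-fold (log2 1.63 ± 0.52 SE, adjusted p = 0.028, range 0.0055 to 0.33). The ligand egr and the kinase bsk, the fly JNK, fell 2.31-fold (log2 -1.21 ± 0.37 SE, adjusted p = 0.022, range 0.0052 to 0.41) and 1.89-fold (log2 -0.92 ± 0.16 SE, adjusted p = 0.0008, range 0.00037 to 0.067). The phosphatase puc, a widely used readout of the pathway, read 9.60 and 9.54 on the wild-type arrays and 9.99, 9.79 and 10.04 on the scrib arrays (log2 0.37 ± 0.26 SE, adjusted p = 0.29, range 0.12 to 0.69), and the AP-1 factors Jra (0.10 ± 0.16 SE, adjusted p = 0.65) and kay (0.13 ± 0.34 SE, adjusted p = 0.8) did not pass. The 2 falls became 1 without wild-type replicate 1, wild-type replicate 2, scrib replicate 1 or scrib replicate 2. grnd (0.23) and bsk (0.052) lost their calls in the fit on the 5 arrays alone. grnd (0.12) lost its call in the fit on the brain arrays. grnd (0.089) and egr (0.067) lost their calls with no filter. Pvf1 (0.065), grnd (0.33), egr (0.41) and bsk (0.067) lost their calls with array weights by group. grnd (0.14) and egr (0.06) lost their calls without wild-type replicate 1. egr (0.086) lost its call without wild-type replicate 2. egr (0.05) lost its call without scrib replicate 1. egr (0.062) lost its call without scrib replicate 2.

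Basement membrane and serpin genes were called higher in larger shares than the 20.7% of all genes. Of 16 matrix genes, 7 were higher and 1 lower (median log2 0.64), and of 11 serpins, 6 were higher and 1 lower (median log2 1.05). In the matrix list the 7 rises became 4 without wild-type replicate 1, and the 1 fall became 0 without wild-type replicate 2, scrib replicate 1 or scrib replicate 2. Among serpins the 1 fall became 0 without wild-type replicate 2. SPARC, a collagen-binding protein, read 9.28 and 10.03 on the wild-type arrays and 11.15, 11.55 and 11.35 on the scrib arrays (3.24-fold higher, log2 1.70 ± 0.26 SE, adjusted p = 0.00038, range 0.00015 to 0.035). The laminin subunits LanA and LanB1 rose 1.95-fold (log2 0.96 ± 0.19 SE, adjusted p = 0.0021, range 0.00097 to 0.082) and 1.56-fold (log2 0.64 ± 0.19 SE, adjusted p = 0.018, range 0.012 to 0.26), and the integrin subunit if rose 2.25-fold (log2 1.17 ± 0.33 SE, adjusted p = 0.014, range 0.011 to 0.17). The type IV collagens Col4a1 (-0.04 ± 0.38 SE, adjusted p = 0.96) and vkg (-0.02 ± 0.42 SE, adjusted p = 0.98) did not pass, and the metalloprotease Mmp2 fell 2.86-fold (log2 -1.52 ± 0.48 SE, adjusted p = 0.027, range 0.01 to 0.32). Among serpins, Spn47C read 2.58 and 3.17 on the wild-type arrays and 5.98, 6.46 and 6.17 on the scrib arrays (at least 4.61-fold higher, log2 3.33 ± 0.31 SE, adjusted p = 1.1e-05, range 4.6e-06 to 0.011), and Spn77Ba rose 3.13-fold (log2 1.65 ± 0.23 SE, adjusted p = 0.00018, range 1.8e-05 to 0.043). LanA (0.082), LanB1 (0.11) and Mmp2 (0.1) lost their calls in the fit on the 5 arrays alone. Mmp2 (0.083) lost its call with no filter. LanA (0.074), LanB1 (0.26), if (0.17) and Mmp2 (0.32) lost their calls with array weights by group. LanB1 (0.053) and if (0.055) lost their calls without wild-type replicate 1. LanB1 (0.055) and Mmp2 (0.24) lost their calls without wild-type replicate 2. Mmp2 (0.07) lost its call without scrib replicate 1. LanB1 (0.058) and Mmp2 (0.06) lost their calls without scrib replicate 2. LanB1 (0.056) lost its call without scrib replicate 3.

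**Figure D3:**
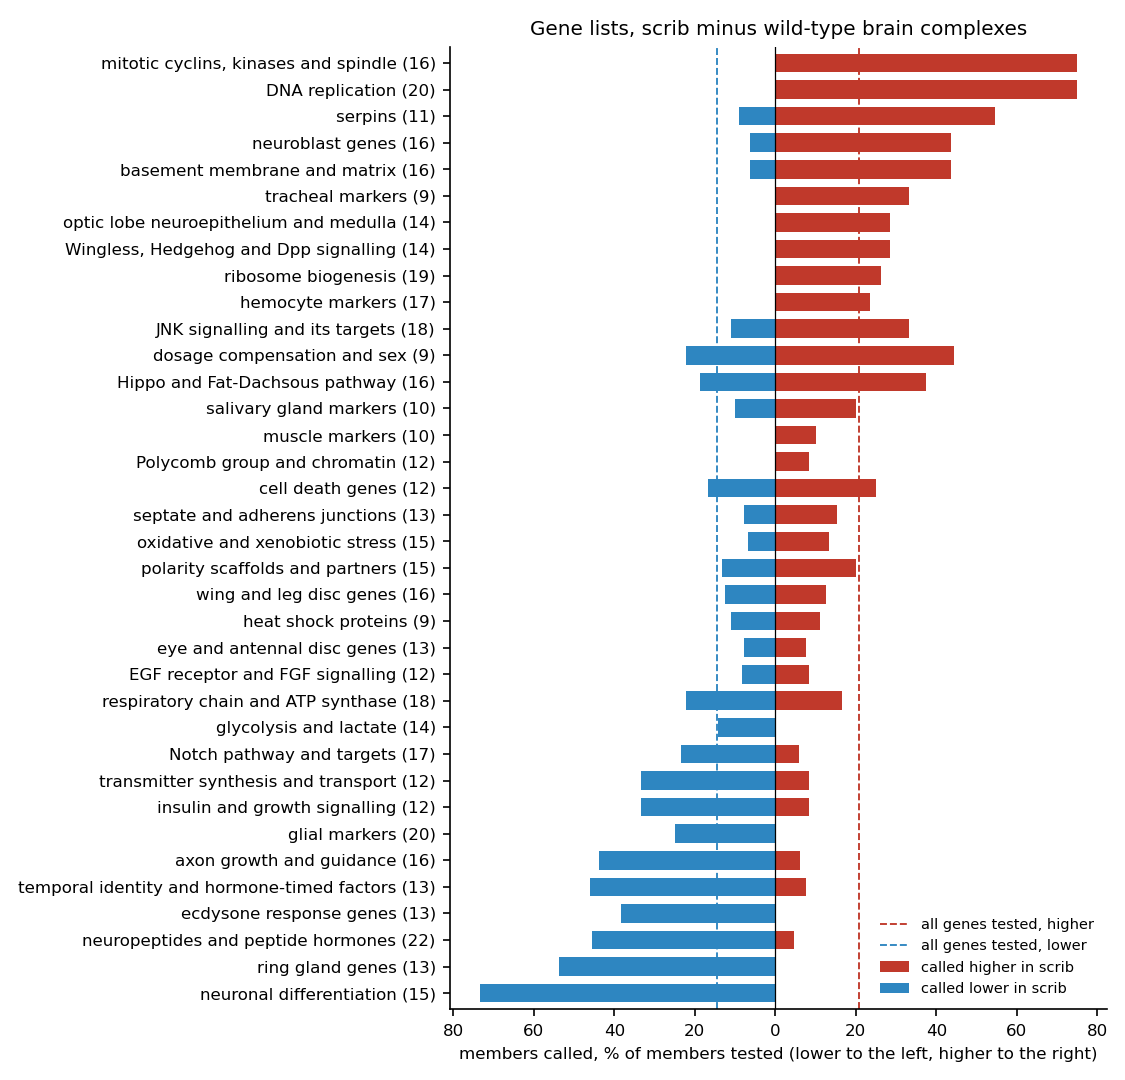
Percent of the tested members of each list called higher (red, right) and lower (blue, left) in scrib brains, with the number tested in brackets and lists of fewer than 9 tested genes left out. Dashed lines mark the shares over all genes, 20.7% higher and 14.4% lower. Mitotic and replication genes lie furthest right, and neuronal, ring gland, temporal and peptide genes furthest left.

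Other signalling lists were also counted. Over all lists 61 counts of calls in 1 direction were above 0, and array weights by group lowered 48 of them by over 1.5 times, 26 of these to 0. Of 17 Notch genes, 1 was higher and 4 lower (median log2 -0.13), the falls including E(spl)m5-HLH (at least 8.59-fold, log2 -3.12 ± 0.23 SE, adjusted p = 2e-06, range 3.9e-07 to 0.017) and E(spl)malpha-BFM (2.76-fold, log2 -1.47 ± 0.19 SE, adjusted p = 0.00014, range 7.2e-05 to 0.035). Limma called 0 of 7 JAK/STAT genes, of which 2 were lower at an unadjusted p below 0.05, and the ligand upd2 was near the floor on all 5 arrays. Of 12 genes of EGF receptor and FGF signalling 1 was higher and 1 lower, and of 14 Wingless, Hedgehog and Dpp genes 4 were higher and 0 lower. The BMP ligand gbb was the largest of these rises (2.29-fold, log2 1.19 ± 0.27 SE, adjusted p = 0.0046, range 9e-05 to 0.12). Cell death genes gave 3 higher and 2 lower of 12, with the Bcl-2 family member Debcl up 3.5-fold (log2 1.81 ± 0.22 SE, adjusted p = 9.7e-05, range 2.8e-05 to 0.034). The 2 falls were Mmp2 and egr, also counted in the matrix and JNK lists. Among 12 Polycomb and chromatin genes the 1 call was esc, a Polycomb repressive subunit, which rose 2.85-fold (log2 1.51 ± 0.13 SE, adjusted p = 8.5e-06, range 6e-06 to 0.018). In the EGF and FGF list the 1 rise became 0 without wild-type replicate 1, scrib replicate 2 or scrib replicate 3, and the 1 fall became 3 without wild-type replicate 1 and 2 without wild-type replicate 2. In the cell death list the 2 falls became 1 without wild-type replicate 1 or scrib replicate 1 and 0 without scrib replicate 2. In the Notch list the 1 rise became 0 without wild-type replicate 1, scrib replicate 1 or scrib replicate 3 and 5 without wild-type replicate 2, and in the Polycomb list the 1 rise became 6 without wild-type replicate 2 and 2 without scrib replicate 2. The Hox gene Antp fell 6.63-fold (log2 -2.73 ± 0.37 SE, adjusted p = 0.00016, range 7.9e-05 to 0.049), the 1 call of 3. gbb (0.12) lost its call in the fit on the 5 arrays alone. gbb (0.055) lost its call with array weights by group.

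Metabolic, stress and immune genes were counted in the same way. Of 14 glycolysis genes, 2 were lower and 0 higher, the falls in Glut1 (at least 4.76-fold, log2 -2.52 ± 0.45 SE, adjusted p = 0.0011, range 0.0011 to 0.045) and Hex-A (2.1-fold, log2 -1.07 ± 0.26 SE, adjusted p = 0.007, range 0.0031 to 0.19). Of 18 genes of the respiratory chain and ATP synthase, 3 were higher and 4 lower, with log2 differences of all 18 between -0.65 and 0.62. Oxidative stress genes gave 2 higher and 1 lower of 15, and heat shock genes 1 and 1 of 9. Drs, described above, was the 1 call among the 6 tested genes of the immune list, which did not hold Def. CecB stayed near the floor on all 5 arrays. Mtk read 2.22 on both wild-type arrays and 2.22, 5.81 and 7.91 on the scrib arrays (log2 3.09 ± 1.27 SE, adjusted p = 0.075). DptB read 2.21 on both wild-type arrays and 2.21, 5.55 and 2.23 on the scrib arrays (log2 1.12 ± 0.80 SE, adjusted p = 0.3). In the respiratory list the 3 rises became 0 without wild-type replicate 1 and 1 without scrib replicate 1 or scrib replicate 2, and the 4 falls became 1 without wild-type replicate 1. For glycolysis the 2 falls became 1 without wild-type replicate 1. For oxidative stress the 2 rises became 1 without wild-type replicate 1, scrib replicate 1, scrib replicate 2 or scrib replicate 3, and the 1 fall became 0 without wild-type replicate 1, scrib replicate 1 or scrib replicate 3 and 2 without wild-type replicate 2. Among heat shock genes the 1 fall became 0 without wild-type replicate 2 or scrib replicate 2. Hex-A (0.067) lost its call in the fit on the 5 arrays alone. Hex-A (0.19) lost its call with array weights by group. Hex-A (0.066) lost its call without wild-type replicate 1.

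Markers of other tissues were read in the same arrays. Of 17 hemocyte markers, 4 were higher and 0 lower, against 20.7% and 14.4% of all genes. The median log2 difference was 0.77, or 0.43 with values below 4 set to 4. He (-0.98), crq (-0.57), eater (-0.55) and Col4a1 (-0.04) had negative log2 differences and did not pass. The rises were led by the prophenoloxidases PPO1 and PPO2 of crystal cells, which rose 8.05-fold (log2 3.01 ± 0.75 SE, adjusted p = 0.0079, range 0.00034 to 0.13) and 9.13-fold (log2 3.19 ± 0.64 SE, adjusted p = 0.0024, range 0.0003 to 0.093). The plasmatocyte receptor NimC1 rose at least 2.91-fold (log2 2.22 ± 0.54 SE, adjusted p = 0.0068, range 0.0053 to 0.3), while Hml had a log2 difference of 1.27 ± 0.65 SE (adjusted p = 0.15). The log2 summed signal of the hemocyte list was 14.07 and 13.95 in wild type and 14.33, 14.61 and 14.45 in scrib, and srp was below 4 on all 5 arrays. Of 9 tracheal markers, 3 were higher and 0 lower, with the deacetylase serp up at least 8.85-fold (log2 3.16 ± 0.62 SE, adjusted p = 0.002, range 3e-06 to 0.098), and the summed signal was 10.77 and 11.87 in wild type and 11.71, 12.41 and 12.19 in scrib. With array weights by group the 4 hemocyte rises became 0. The fourth call, the ferritin subunit Fer1HCH, had a log2 difference of 0.35 (adjusted p = 0.037, and 0.35 with those weights). In the tracheal list the 3 rises became 6 without wild-type replicate 2 and 5 without scrib replicate 1. PPO1 (0.13), PPO2 (0.07) and serp (0.098) lost their calls in the fit on the 5 arrays alone. PPO1 (0.052) lost its call in the fit on the brain arrays. PPO1 (0.13), PPO2 (0.093) and NimC1 (0.3) lost their calls with array weights by group. PPO1 (0.12) lost its call without wild-type replicate 1. Hml (0.044) passed without wild-type replicate 1.

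Fat body and salivary gland markers varied between the scrib arrays. The storage protein gene Lsp2 read 7.48 and 8.61 on the wild-type arrays and 8.60, 10.68 and 13.90 on the scrib arrays (log2 3.01 ± 1.48 SE, adjusted p = 0.13, range 0.043 to 0.59). The fat body gene Fbp2 read 5.26 and 5.85 on the wild-type arrays and 6.77, 9.82 and 12.19 on the scrib arrays (log2 4.04 ± 1.63 SE, adjusted p = 0.072, range 0.021 to 0.49). Neither passed. Both were highest on scrib replicate 3. The log2 summed signal of 7 fat body markers was 13.90 and 13.45 in wild type and 13.29, 13.74 and 14.95 in scrib, with 0 higher and 2 lower. That of 10 salivary gland markers was 6.64 and 9.13 in wild type and 8.50, 10.39 and 13 in scrib, with 2 higher and 1 lower, and the glue gene Sgs7 read 3.55 and 8.08 on the wild-type arrays and 2.81, 7.35 and 10 on the scrib arrays (log2 0.90 ± 2.05 SE, adjusted p = 0.77, range 0.27 to 1.0). The part of attached fat body or salivary gland in the rises of ng1 and ng3 was not tested. In the fat body list the 2 falls became 1 without wild-type replicate 1, wild-type replicate 2, scrib replicate 1 or scrib replicate 3. In the salivary gland list the 2 rises became 0 without wild-type replicate 1. Of 10 muscle markers 1 was higher, Zasp52 (7.67-fold, log2 2.94 ± 0.32 SE, adjusted p = 3.9e-05, range 1.3e-05 to 0.027), and Tm2 did not pass (0.01 ± 0.72 SE, adjusted p = 1.0). Lsp2 (0.043) and Fbp2 (0.021) passed without scrib replicate 1.

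Of 13 genes of the eye and antennal disc, 1 was higher and 1 lower, with summed signals of 11.27 and 11.75 in wild type and 11, 10.81 and 11.24 in scrib. The Pax6 factor toy had a log2 difference of -0.73 ± 0.40 SE (adjusted p = 0.18), and the retinal proneural gene ato fell at least 1.6-fold (log2 -2 ± 0.32 SE, adjusted p = 0.00047, range 0.00047 to 0.045). Of 16 wing and leg disc genes, 2 were higher and 2 lower. The wing factor vg read 4.17 and 5.36 on the wild-type arrays and 4.88, 4.96 and 4.79 on the scrib arrays (log2 0.11 ± 0.34 SE, adjusted p = 0.84, range 0.11 to 1.0), and hh was below 4 on all 5 arrays. The leg and antennal factor Dll rose 2.23-fold (log2 1.16 ± 0.42 SE, adjusted p = 0.048, range 0.017 to 0.37), and odd rose 6.33-fold (log2 2.66 ± 0.20 SE, adjusted p = 2e-06, range 9.6e-07 to 0.0097). Limma called 0 of 4 cuticle genes, with 1 lower at an unadjusted p below 0.05, and 0 of 1 photoreceptor gene, with 0 at that level. In the eye list the 1 rise became 0 without wild-type replicate 1, scrib replicate 1 or scrib replicate 3 and 3 without wild-type replicate 2. In the wing and leg list the 2 rises became 1 without wild-type replicate 1, scrib replicate 1 or scrib replicate 2. Dll (0.11) lost its call in the fit on the 5 arrays alone. Dll (0.13) lost its call with no filter. Dll (0.052) lost its call with the replicate block. Dll (0.37) lost its call with array weights by group. Dll (0.36) lost its call without wild-type replicate 1. Dll (0.11) lost its call without scrib replicate 1. Dll (0.055) lost its call without scrib replicate 2. Dll (0.099) lost its call without scrib replicate 3.

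Genes of dosage compensation and sex gave 4 higher and 2 lower of 9 (median log2 0.65). In flies the MSL complex raises transcription of the single male X chromosome, and Sxl blocks it in females. The complex members msl-3, mof and msl-2 rose 4.71-fold (log2 2.24 ± 0.23 SE, adjusted p = 2.2e-05, range 1e-05 to 0.021), 2.33-fold (log2 1.22 ± 0.30 SE, adjusted p = 0.0074, range 0.00098 to 0.14) and 2.07-fold (log2 1.05 ± 0.34 SE, adjusted p = 0.031, range 0.0064 to 0.36), msl-1 fell 1.5-fold (log2 -0.59 ± 0.20 SE, adjusted p = 0.036, range 0.00083 to 0.41), and Sxl fell 2.2-fold (log2 -1.14 ± 0.31 SE, adjusted p = 0.013, range 0.0083 to 0.3). Of the same list, mle did not pass (log2 -0.42 ± 0.26 SE, adjusted p = 0.24). The labels do not give the sex of the larvae, and its part in these values was not tested. The 4 rises became 1 without wild-type replicate 1, and the 2 falls became 0 without wild-type replicate 1 and 1 without scrib replicate 2 or scrib replicate 3. The sex-determining factor dsx rose at least 1.73-fold (log2 1.53 ± 0.46 SE, adjusted p = 0.02, range 0.0016 to 0.27), with a log2 difference of 0.72 without wild-type replicate 1 and 2.35 without wild-type replicate 2, and that of msl-1 was -0.20 and -0.98. mof (0.14), msl-2 (0.1), msl-1 (0.25) and dsx (0.16) lost their calls in the fit on the 5 arrays alone. mof (0.051), msl-1 (0.13) and dsx (0.065) lost their calls in the fit on the brain arrays. msl-2 (0.087), msl-1 (0.065) and dsx (0.065) lost their calls with no filter. mof (0.13), msl-2 (0.36), msl-1 (0.22), Sxl (0.3) and dsx (0.19) lost their calls with array weights by group. mof (0.1), msl-2 (0.19), msl-1 (0.41), Sxl (0.068) and dsx (0.27) lost their calls without wild-type replicate 1. msl-2 (0.11) lost its call without scrib replicate 1. msl-1 (0.12) lost its call without scrib replicate 2. msl-1 (0.051) and dsx (0.072) lost their calls without scrib replicate 3.

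Genes were also grouped by chromosome arm, a split made after the values were seen. On the X chromosome 29.9% of 1192 genes were called higher and 11.6% lower (median log2 0.27), while the medians of 2L, 2R, 3L and 3R lay between 0.01 and 0.10. On the small chromosome 4, a total of 31 of 59 genes (52.5%) were called lower and 3 higher, with a median log2 difference of -0.92, and 52 of the 59 lay below 0. Relative to the wild-type mean, the median over chromosome 4 genes was 0.30 and -0.30 on the wild-type arrays, -0.97, -1 and -0.72 on the scrib arrays and -0.40, -0.50 and -0.65 on the lgl arrays. The scrib arrays lay lowest and overlapped neither other group. The median was -0.61 without wild-type replicate 1 and -1.18 without wild-type replicate 2, with 18 chromosome 4 genes lower without replicate 1 and 12 either with group weights or with the 5 arrays alone. The 357 X chromosome genes called higher became 111 with group weights and 82 with the 5 arrays alone, and the median over X chromosome genes was 0.15 without wild-type replicate 1 and 0.36 without wild-type replicate 2. Relative to the wild-type mean it was -0.13 and 0.13 on the wild-type arrays themselves. In wing discs the median difference between scrib and wild type was -0.62 over chromosome 4 genes and 0.11 over X chromosome genes.

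**Figure D4:**
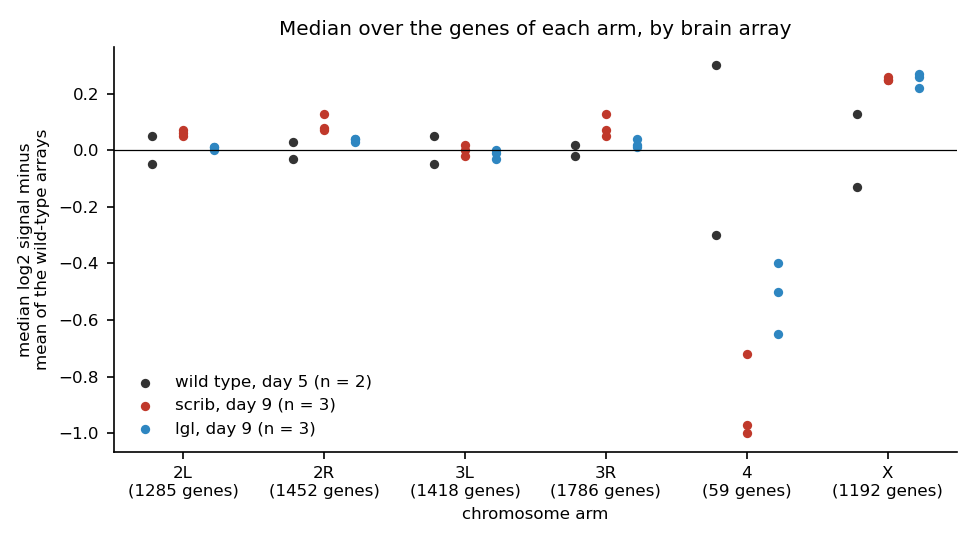
Median over the genes of each chromosome arm of the log2 signal minus the mean of the wild-type brain arrays, for each wild-type (black, n = 2), scrib (red, n = 3) and lgl (blue, n = 3) brain array. Chromosome 4 genes lie lowest on the scrib arrays, and X chromosome genes lie at 0.22 to 0.27 on every mutant array.

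The next comparison set scrib against lgl brains of the same age (n = 3 and 3 arrays), a contrast in which no wild-type mean enters. In limma 1014 probe sets passed, of which 478 were higher and 536 were lower in scrib. The count was 604 without lgl replicate 1, 620 without lgl replicate 2 and 659 without scrib replicate 2. Of genes, 5.68% were called higher and 5.28% lower. Apart from l(2)gl, the largest differences were in Hsc70-2, a heat shock cognate, which read 8.76, 9.18 and 8.94 on the scrib arrays and 2.21, 2.22 and 2.21 on the lgl arrays (at least 31.2-fold higher in scrib, log2 6.75 ± 0.50 SE, adjusted p = 3.7e-06), Zip102B (at least 71.1-fold higher, log2 6.53 ± 0.14 SE, adjusted p = 9.2e-12), Def (at least 20.9-fold higher, log2 6.18 ± 0.81 SE, adjusted p = 0.00035) and Marf1 (at least 29.2-fold higher, log2 5.74 ± 0.29 SE, adjusted p = 8.5e-08). Lower in scrib were the cuticle genes Cpr12A (at least 32.2-fold, log2 -6.01 ± 0.87 SE, adjusted p = 0.00081) and Cpr64Aa (38.6-fold, log2 -5.27 ± 0.56 SE, adjusted p = 6.6e-05), the glutathione transferase GstD3 (at least 22.1-fold, log2 -4.70 ± 0.88 SE, adjusted p = 0.0043), Culd (at least 20.6-fold, log2 -4.44 ± 0.34 SE, adjusted p = 4.5e-06) and NimA (at least 9.02-fold, log2 -4.23 ± 0.23 SE, adjusted p = 1.3e-07). Hsc70-2 read 7.01 and 9.25 on the wild-type arrays, so the scrib level lay inside the wild-type range. Scrib also overlapped wild type for Culd, which read 3.74 and 3.83 on the wild-type arrays and a mean of 8.39 in lgl. The wild-type arrays differed widely for Cpr12A (3.04 and 8.07) and GstD3 (6.37 and 2.71). Cpr64Aa read 2.57 and 3.15 on the wild-type arrays and 7.18, 4.66 and 7.58 on the scrib arrays. It was thus lower than in lgl but above wild type.

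Lists with many calls against wild type differed in their counts between the mutants. Of 20 replication genes, 9 were higher in scrib than lgl and 0 lower, among them PolE1 (log2 0.72 ± 0.14 SE, adjusted p = 0.0056) and Mcm2 (log2 0.63 ± 0.15 SE, adjusted p = 0.018), whereas limma called 0 of 16 mitotic genes (7 at an unadjusted p below 0.05), with CycB at log2 0.23 (adjusted p = 0.41) and feo at 0.46 (0.1). Axon guidance genes gave 7 lower of 16 and 0 higher, among them NetB (log2 -1.19 ± 0.25 SE, adjusted p = 0.0078). Of 22 peptide genes, 9 were higher and 1 lower in scrib, with Dh31 (log2 1.47 ± 0.30 SE, adjusted p = 0.0067) and Ptth (log2 0.67 ± 0.20 SE, adjusted p = 0.047) higher and Ilp8 lower (log2 -3.42 ± 0.67 SE, adjusted p = 0.0058). Against the wild-type arrays, which both mutants share as controls, Ptth differed by log2 -2.34 in scrib and -3.02 in lgl, and Dh31 by -1.93 and -3.40. Of 16 neuroblast genes, 1 was higher and 1 lower than in lgl, and of 20 glial genes 0 were higher and 2 lower, 1 of them repo (log2 -1.73 ± 0.33 SE, adjusted p = 0.0053). The wing factor vg (log2 -3.17 ± 0.31 SE, adjusted p = 3.2e-05), elav (log2 -1.81 ± 0.47 SE, adjusted p = 0.027) and Imp (log2 -1.19 ± 0.34 SE, adjusted p = 0.041) were lower in scrib than in lgl. Both elav and Imp were also called lower in scrib than in wild type. For vg, repo and Ilp8 scrib did not pass against wild type (log2 0.11, -0.28 and 0.87), and the lgl means were 8.05, 10.58 and 8.60.

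The last comparison tested whether the scrib effect differed between brain complexes and wing discs, with disc arrays of the same genotypes and ages (3 scrib and 2 wild type). The difference was called for 996 probe sets, and among genes 5.05% had a more positive and 6.14% a more negative effect in brains than in discs. The storage and secreted protein genes Fbp2 (log2 9.31 ± 2.31 SE, adjusted p = 0.022), fon (log2 8.14 ± 1.92 SE, adjusted p = 0.017), Lsp2 (log2 7.34 ± 2.09 SE, adjusted p = 0.041), Spn100A (log2 6.40 ± 0.90 SE, adjusted p = 0.00079) and Cpr78E (log2 6.35 ± 0.90 SE, adjusted p = 0.0009) had the most positive differences among called genes with names. In brains these 5 genes did not pass against wild type, and in discs their log2 differences were -5.26, -5.33, -4.32, -6.40 and -6.01. The wild-type disc arrays lay far apart for Fbp2 (SD 3.07 log2), fon (2.41) and Cpr78E (1.69), against a pooled SD of 0.65. Scrib brain arrays also spread widely for Fbp2 (SD 2.72) and fon (2.47). The most negative among them were in Cyp6a20 (log2 -6.87 ± 1.03 SE, adjusted p = 0.0012), the FGF ligand bnl (log2 -5.08 ± 0.55 SE, adjusted p = 0.0001), Cpr64Ac (log2 -5.04 ± 1.28 SE, adjusted p = 0.024), NimA (log2 -4.88 ± 0.36 SE, adjusted p = 7.2e-06) and Frq1 (log2 -4.67 ± 0.36 SE, adjusted p = 8.3e-06). Disc effects of Cyp6a20, bnl and Cpr64Ac were 6.61, 5.56 and 6.99 log2, against -0.26, 0.48 and 1.95 in brains. For bnl and Spn100A all scrib and wild-type brain arrays read below 4, so their brain effects were read only near the floor.

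Division genes were among those with a more positive effect in brains. Of 20 replication genes, 4 had a more positive effect in brains and 0 the opposite, and of 16 mitotic genes 5 and 0. Mcm2 differed from wild type by 1.43 log2 in brains and 0.30 in discs (log2 1.14 ± 0.24 SE, adjusted p = 0.0097), and feo by 1.75 and 0.46 (log2 1.28 ± 0.27 SE, adjusted p = 0.01). Of 18 JNK genes, 0 had a more positive and 3 a more negative effect in brains, among them Jra (0.10 in brains and 1.36 in discs, log2 -1.25 ± 0.23 SE, adjusted p = 0.004) and Ilp8 (0.87 and 5.08, log2 -4.21 ± 1.06 SE, adjusted p = 0.024). ImpL2, a secreted insulin antagonist, differed by -0.19 in brains and 4.04 in discs (log2 -4.23 ± 0.65 SE, adjusted p = 0.0014). In brains and discs, Zip102B and Tektin-C differed by 6.48 and 6.59 log2, and 5.76 and 5.39 log2. Leaving out wild-type brain replicate 2 raised the count of called differences to 2255, and array weights by group lowered it to 137.

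**Figure D5:**
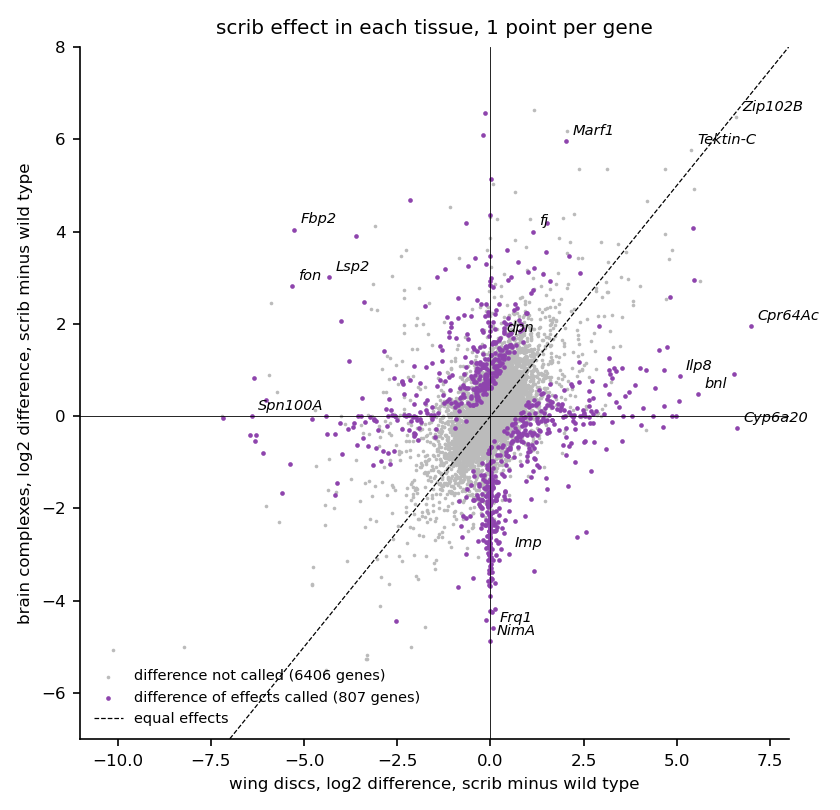
Log2 difference between scrib and wild type in wing discs (horizontal axis) and brain complexes (vertical axis), 1 point for each of 7213 genes. The 807 purple points are genes whose difference of effects was called and the dashed line marks equal effects. Fbp2, fon and Lsp2 lie at the upper left, Cyp6a20, bnl and Cpr64Ac at the right, and Frq1 and NimA at the bottom near a disc difference of 0.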

How the data were processed

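Brain complexes were profiled on Affymetrix Drosophila arrays, from RNA isolated with TRIZOL and column purified, per the labels' protocols. The values are log2 signals deposited by the authors and made with GCRMA, per the submitters' processing notes, and the GCRMA version is not given in the sources used here. They ran from 2.21, the floor, to 15.94. Samples were grouped by tissue, genotype and age from the labels.

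Probe sets at or above 4 on at least 2 arrays were kept (8819). A single model of 6 group means over 16 arrays was fitted with limma 3.58.1 in R 4.3.3 (10 residual degrees of freedom), and p-values were adjusted by Benjamini-Hochberg over all probe sets, with 0.05 as threshold. The contrasts were scrib minus wild-type brain, scrib minus lgl brain, and the scrib effect in brains minus that in wing discs. Of 18952 probe sets, 13646 have 1 gene symbol in the platform annotation, 402 several, 4721 none and 183 are controls, and 13543 of the single symbols matched RefSeq. A gene is its brightest tested probe set by the mean over the 16 arrays (7213 genes). A fold is written as at least N where an array of the lower group read below 4. Each such value was set to 4 before that group's mean was taken, and no fold is given where both group means lay below 4. The script was tested on simulated data.

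Genes named are scrib and l(2)gl, the 15 largest rises and 15 largest falls without overlap of arrays, the 5 largest differences each way in the other contrasts, up to 6 called members each way of each list, and key members of each list. Genes with no name beyond a CG or CR number were left out of this rule. The members and lists were chosen with earlier results of these data known. Alternatives were no filter, a filter set at 6, a variance fitted with trend and robustly, added quantile normalization, a replicate block, 1 probe set per gene, fewer arrays in the fit, array weights by group, an added minimum fold of 2, and each array left out. The grouping by chromosome arm was added after seeing the data. The number of arrays limits the precision. No sequences were used here.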

Additional observations from a re-analysis of the deposited data

Results flagged for a closer look

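Of the 250 genes that the naming rule covers, 82 passed limma's test of the difference between the scrib effect in brain complexes and that in wing discs, against 807 of all 7213 genes, and 10 of the 82 were named for the size of that difference. Many of the 250 were named because they were called between scrib and wild-type brains, and 191 were so called. That contrast is part of the difference, so the shares cannot be compared. Of the 82 genes, 65 were also called between scrib and wild-type brains. The differences are log2 of brain minus disc, each with its sign.

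Of the genes called in brains and read at 4 or more in either disc group mean, 32 had a positive difference (adjusted p from 4.8e-05 to 0.048), which include division genes, patterning factors and crystal cell markers. The values were PPO1 4.45, PPO2 4.41, btd 4.13, Gs2 3.93, Marf1 3.93, Cpr64Aa 3.16, Optix 2.99, grh 2.94, dsx 2.90, fj 2.86, Dll 2.73, klu 2.72, NimB2 2.66, Spn47C 2.60, Zasp52 2.47, ETH 2.40, Hsp27 1.67, odd 1.58, dpn 1.44, shg 1.37, Cat 1.33, feo 1.28, kst 1.28, msl-3 1.25, dpa 1.24, Mcm2 1.14, esc 1.09, Orc1 1.0, pbl 0.97, ncd 0.89, Mcm5 0.88 and smo 0.75. The effects of Dll were 1.16 in brains and -1.57 in discs. A negative difference was found for 9 such genes (adjusted p from 0.0012 to 0.043), with SK -3.76, Imp -3.47, GstE6 -3.09, Ptth -2.11, Hex-A -1.89, htl -1.57, Dnaaf3 -1.35, sdt -1.20 and Start1 -1.05. Imp, SK and Ptth fell in brains, and their disc effects were 0.49, 0.13 and -0.24. Dnaaf3 had effects of 4.08 in brains and 5.43 in discs.

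For 24 genes called in brains both disc group means lay below 4, so the disc effect was read only near the floor. These include genes of neuronal function. The difference was positive for 3 (adjusted p from 3.6e-05 to 0.014), with Actbeta 4.83, Rx 3.47 and bsh 2.83, and negative for 21 (adjusted p from 7.2e-06 to 0.024), with NimA -4.88, Frq1 -4.67, FoxP -4.29, Gabat -4.29, Irk2 -4.21, NfI -3.62, GluClalpha -3.56, E(spl)m5-HLH -3.37, nvd -2.83, beat-Ia -2.74, Vmat -2.60, Nckx30C -2.52, brp -2.37, Rdl -2.20, fkh -2.12, VGlut -1.90, Dh31 -1.89, ato -1.78, Syn -1.45, VGAT -1.41 and Alk -1.16.

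The remaining 17 genes were not called in brains. Of these, 6 had a positive difference (adjusted p from 0.00079 to 0.041), with Fbp2 9.31, fon 8.14, Lsp2 7.34, Spn100A 6.40, Cpr78E 6.35 and hh 1.77, and 11 a negative one (adjusted p from 4.6e-05 to 0.024), with Cyp6a20 -6.87, bnl -5.08, Cpr64Ac -5.04, ImpL2 -4.23, Ilp8 -4.21, moody -3.37, chinmo -2.74, CecB -2.67, Pfk -1.45, aos -1.26 and Jra -1.25. Spn100A, hh, bnl and CecB read below 4 on all scrib and wild-type brain arrays. Their brain effects were therefore read only near the floor.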

How the results depend on the processing

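The count of 3073 probe sets called between scrib and wild-type brains was 963 in the fit on the 5 arrays alone and 780 with array weights by group. It was 1673 once a minimum fold of 2 was added. With an array left out it ranged from 2480 (without wild-type replicate 1) to 3820 (without wild-type replicate 2). The count of 1014 between scrib and lgl brains was 1557 in the fit on those arrays alone, 583 in the fit on the brain arrays, 1923 with array weights by group and 582 once that minimum fold was added. It ranged from 604 to 774 with an array left out, with 604 without lgl replicate 1, 620 without lgl replicate 2 and 659 without scrib replicate 2. The count of 996 for the difference between brain and disc effects was 475 in the fit on those arrays alone and 137 with array weights by group. It ranged from 730 to 2255, the highest without wild-type brain replicate 2. The cause was not tested.

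The level of the probe set that represents scrib kept its side of the threshold under every alternative run, from -0.46 to 0.38 with an array left out. The labels give no basis for pairing beyond the replicate numbers. The correlations of deviations between same-numbered arrays were 0.0507 and -0.104 for scrib and wild-type brains, -0.0106 to 0.167 for scrib and lgl brains, -0.115 to -0.0206 for scrib brains and discs, and 0.434 for wild-type brains and discs, a single value since each of these groups has 2 arrays. With the replicate block the counts were 3024, 994 and 975. Under every alternative on the same probe sets 555 were called, 300 higher and 255 lower. Of 191 named genes called, 60 kept the call under every alternative run for them. The spread of the wild-type brain arrays (pooled SD 0.66) and their number limit these calls, and signals below 4 limit fold changes to lower bounds.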

Other observations

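Def, Marf1, Tektin-C, Zip102B and CR44101 read at least 6 on every scrib brain array and below 4 on every wild-type and lgl brain array, and NimA was the reverse, a set chosen after values were seen. CR44101 read a mean of 6.35 in scrib brains, 2.42 in wild-type brains and 2.31 in lgl brains. In scrib discs its mean was 8.96, against 4.27 in wild-type discs. Tektin-C read 7.69 in scrib discs and 2.30 in wild-type discs, and Zip102B read 10.25 and 3.66.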
